A study of Mus musculus with 90 samples.

Results

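The comparison described here set kidney medulla at an injected activity of 0.64 kBq of astatine-211 against kidney medulla at 0.064 kBq. It took in 6 of the 90 arrays of the series, the 3 labelled with each of these activities, and the 13257 of 25697 probes that were detected on at least 3 of the 6 arrays (detection p under 0.05). Both groups were Balb/c mice given the alpha emitter intravenously, and RNA was taken from fresh-frozen tissue 24 h later. The series covered 5 tissues and 6 activities, 0 kBq among them, with 3 arrays per tissue and activity. The 0 kBq arrays belonged to another array set, so neither group here had an uninjected control, and every difference is one between a lower and a higher activity. The labels did not say whether the 3 arrays of a group came from separate animals, nor give the sex or age of any animal. The p-values therefore rest on array-to-array spread alone, which may be technical at least in part.

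The renal medulla holds the loops of Henle, the collecting ducts and the vasa recta, and makes the salt and urea gradient against which urine is concentrated. Its cells live at low oxygen and high tonicity, and are known for small heat shock proteins and for transporters of organic osmolytes. At its tip the papilla opens into the renal pelvis, which is lined by urothelium and smooth muscle and lies in fat. Alpha particles deposit their energy over a few cell diameters, and the classical transcriptional response to such damage is the p53 programme, with Cdkn1a and Mdm2 among its targets.

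Median unnormalised intensities ran from 150.4 to 196 over the 6 arrays, 12783 to 13472 probes were detected on each, and the arrays correlated pairwise at 0.9748 to 0.986 after normalisation. The tissue label was borne out by marker genes in part. On 12 kidney arrays of both activities normalised together, the median level of the thin limb list was 7.33 to 8.97 in medulla and 4.96 to 5.43 in cortex. The thick ascending limb list did not part the zones, at 11.56 to 12.17 in medulla and 11.74 to 12.35 in cortex, and the proximal tubule list was at 11 to 11.59 in medulla and 11.78 to 12.09 in cortex. The list of proximal straight tubule and androgen-responsive genes was higher in medulla, at 11.46 to 12.06 against 6.92 to 10.47 in cortex. A pair of libraries stood apart. Array 1 of 0.64 kBq had no detected Xist, the transcript of the inactive X chromosome, at 5.13 against 8.99 to 9.37 on the other 5 medulla arrays, and it had the Y-linked Eif2s3y at 8.30 against 4.51 to 4.79. The same held for array 1 of 0.64 kBq in all 5 tissues, while the other 25 arrays of these activities had Xist detected and Eif2s3y undetected. By these transcripts array 1 of 0.64 kBq came from another animal than arrays 2 and 3. Sex-linked levels were thus mixed in the 0.64 kBq group only. The second library was array 3 of kidney cortex at 0.064 kBq, which carried urothelial, fat and smooth muscle transcripts and is treated with the cortex comparison.

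The question was which transcripts differ in medulla between the activities. No probe rose and 10 fell at 0.64 kBq (limma with Benjamini-Hochberg adjustment over 13257 probes, adjusted p under 0.05), which is 0.0754% called lower and 0% called higher. At an unadjusted p under 0.05, 452 probes were higher and 568 lower. Over the 9241 genes tested, 1 probe per gene, the median log2 difference (0.64 minus 0.064 kBq) was 0.02 and 54.6% lay above 0. Quantile normalisation gives all arrays the same distribution, so this centre near 0 is largely set by the processing. The number of calls rested on single arrays: it was 20 without array 1 of 0.064 kBq (3 higher, 17 lower), 3 without array 2, 10 without array 3 (3 higher, 7 lower), 17 without array 1 of 0.64 kBq (1 higher, 16 lower), 5 without array 2 and 3 without array 3. When arrays were scaled to equal medians in place of quantiles, the split was 4 higher and 5 lower. The median of all genes was then 0.20, with 80.8% above 0.

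A fit of all 18 medulla arrays, which estimates the spread of a probe from 12 residual degrees of freedom in place of 4 but normalises both array sets together, called 48 probes higher (0.314% of 15298) and 130 lower (0.85%). All 10 probes of the smaller fit were among the 130. Both fits take the difference from the same 6 arrays, so no call of the larger fit is independent support. Angptl4 had SDs of 0.02 to 0.13 in the other array set against 0.43 and 0.26 here. Those of Ly6f were 0.09 to 0.46 against 0.80 and 1.10. Slc5a3 went the other way at 0 kBq (0.58 against 0.12 and 0.17). Where the other set varied less, the larger fit understates the spread of the 6 arrays. The larger fit is named as the 18-array fit wherever a call rests on it.

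**Figure D1:**
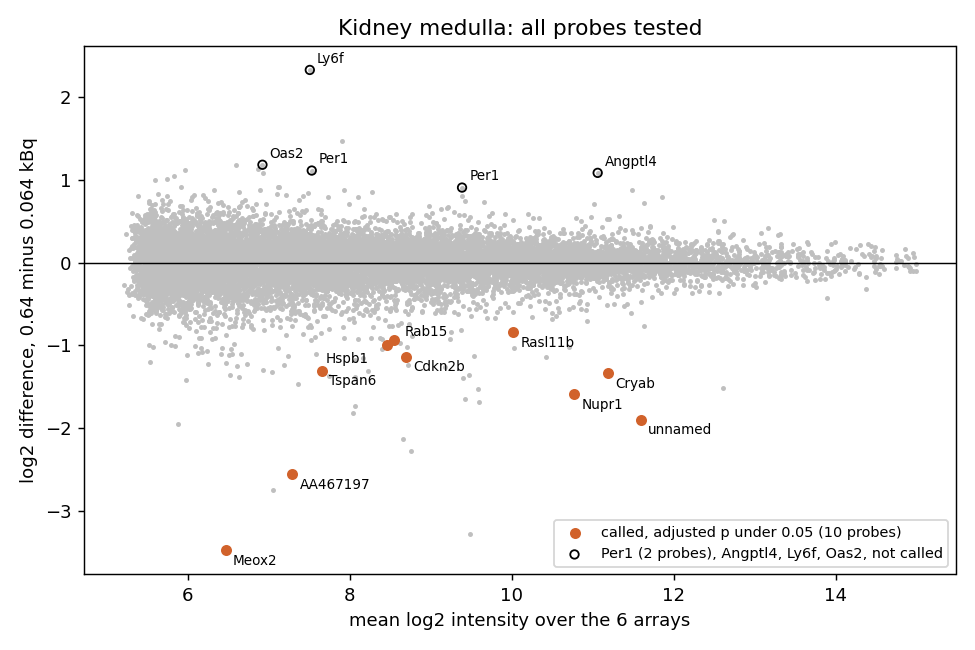
Log2 difference between 0.64 and 0.064 kBq (vertical axis) against the mean log2 intensity over the 6 medulla arrays (horizontal axis) for 13257 probes. Orange points are the 10 called probes, all below 0, from -0.84 for Rasl11b down to Meox2, whose place is no measured size because it was undetected at 0.64 kBq, and open circles are Per1, Angptl4, Ly6f and Oas2, which lie above 0 and were not called.

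The largest fall was in Meox2, a homeobox transcription factor of mesenchyme and vessels. Its levels were 7.03, 8.46 and 9.12 at 0.064 kBq (8.20 ± 1.07, SD, n = 3) and 4.99, 4.59 and 4.61 at 0.64 kBq, where it was undetected on all 3 arrays. It was at least 6.52-fold lower, the bound being set by the detection limit of those arrays (adjusted p = 0.0221, limma). The bound is for background-corrected values. Without that correction, and with the authors' processed intensities, Meox2 did not pass (adjusted p = 0.091 and 0.0891, limma). The groups were far apart, and array 1 was well below the other arrays of 0.064 kBq.

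AA467197, also known as Nmes1 and encoding a small mitochondrial protein, stood at 8.65, 8.28 and 8.77 at 0.064 kBq and at 5.72, 5.66 and 6.64 at 0.64 kBq. The difference was -2.56 ± 0.26 (SE), or 5.88-fold (adjusted p = 0.00708, limma). That size depended on background correction: it was -1.405 without it and -1.375 with the authors' processed intensities, called in both. A probe with no gene name (ILMN_2591917) had the smallest p of all, at 12.38, 12.41 and 12.82 against 10.58, 10.52 and 10.80, a fall of 3.73-fold (adjusted p = 0.000553, limma). In both, the lowest array of 0.064 kBq lay far above the highest of 0.64 kBq.

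Nupr1, a small chromatin-associated protein induced by Atf4 and nutrient stress, had levels of 11.48, 11.36 and 11.86 at 0.064 kBq and 10.15, 9.83 and 9.94 at 0.64 kBq, 3.01-fold lower (adjusted p = 0.00286, limma). Cryab, a small heat shock protein that inner medullary cells hold in large amounts, went from 11.80, 11.61 and 12.16 to 10.30, 10.84 and 10.42, 2.53-fold lower (adjusted p = 0.0221, limma). Hspb1, the other small heat shock protein called, went from 8.78, 9.14 and 8.93 to 7.90, 7.93 and 8.06, 1.99-fold lower (adjusted p = 0.0438, limma). For each of these genes every 0.64 kBq array lay below every 0.064 kBq array.

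Cdkn2b, an inhibitor of the cyclin D kinases, was tight within groups, at 9.24, 9.25 and 9.29 against 7.99, 8.29 and 8.09 (2.20-fold lower, adjusted p = 0.013, limma). Tspan6, a tetraspanin of the X chromosome, was at 8.09, 8.32 and 8.51 against 6.89, 6.87 and 7.24 (2.47-fold lower, adjusted p = 0.0323). Its other probe differed by -1.02 and did not pass (adjusted p = 0.181, limma). The small GTPases Rab15, of endosome recycling, and Rasl11b, a Ras-like protein, were 1.91-fold and 1.79-fold lower (adjusted p = 0.0438 for both, limma), and the other probe of Rasl11b, at -0.60, did not pass (adjusted p = 0.158). The unnamed probe, AA467197 and Nupr1 were called without any 1 of the 6 arrays. Cryab and Cdkn2b were called in 4 of those 6 fits, Tspan6, Hspb1 and Rab15 in 1, Meox2 in 1 of the 3 in which it was tested, and Rasl11b in 0.

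**Figure D2:**
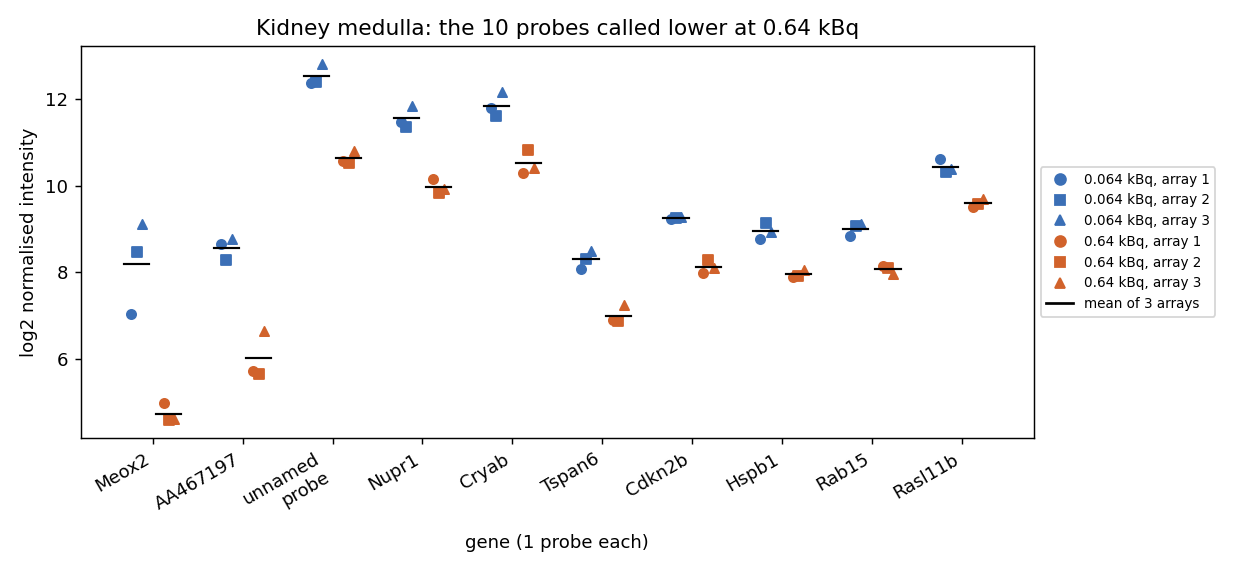
Log2 normalised intensity (vertical axis) of the 10 probes called lower, on each of the 3 arrays of 0.064 kBq (blue) and 0.64 kBq (orange), with black bars for the means of 3 arrays. In each probe the 2 groups do not overlap, and the groups of Meox2 are the farthest apart.

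Promoters of 8 of the 9 named genes called lower were found in the RefSeq promoter table (build GRCm38.p6, 250 bases before to 50 after the gene's start). The pair below is shown because Nupr1 and Hspb1 are called genes with a match to a motif of a stress-activated factor, the third because Per1 had 2 probes with higher levels at 0.64 kBq. Capitals mark matches, on either strand, to TGATGNAA, the composite site of C/EBP and ATF factors through which Atf4 is known to act, and to CACGTG, the E-box that clock factors bind (both in Nupr1, CACGTG alone searched in Per1), and to GAANNTTC, the core of a heat shock element (in Hspb1).
Nupr1, chr7:126625421-126625720, minus strand: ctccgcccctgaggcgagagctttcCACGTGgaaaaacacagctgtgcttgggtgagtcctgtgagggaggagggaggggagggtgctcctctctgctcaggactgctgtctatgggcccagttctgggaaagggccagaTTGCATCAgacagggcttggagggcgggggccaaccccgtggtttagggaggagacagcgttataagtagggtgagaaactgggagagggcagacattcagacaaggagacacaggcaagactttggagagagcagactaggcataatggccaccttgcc
Hspb1, chr5:135887669-135887968, plus strand: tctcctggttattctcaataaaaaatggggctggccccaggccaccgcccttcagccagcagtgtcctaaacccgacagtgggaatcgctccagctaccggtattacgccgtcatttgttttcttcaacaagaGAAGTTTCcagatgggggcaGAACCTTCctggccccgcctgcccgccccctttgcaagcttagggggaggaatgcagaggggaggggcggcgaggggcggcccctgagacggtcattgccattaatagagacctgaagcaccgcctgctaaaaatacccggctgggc
Per1, chr11:69098699-69098998, plus strand: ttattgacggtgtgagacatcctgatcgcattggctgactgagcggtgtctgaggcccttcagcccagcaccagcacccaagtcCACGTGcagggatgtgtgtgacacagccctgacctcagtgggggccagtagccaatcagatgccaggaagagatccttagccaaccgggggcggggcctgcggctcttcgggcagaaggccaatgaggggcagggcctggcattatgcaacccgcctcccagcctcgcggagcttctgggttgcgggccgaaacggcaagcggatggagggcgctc

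In Nupr1 the CACGTG match began 225 bases before the start and that to TGATGNAA 110 bases before it, on the opposite strand to the printed one. Hspb1 held 2 matches close to each other, the nearer beginning 97 bases before the start, and Per1 held 1, beginning 166 bases before it. Of all 27025 genes in the table, which had 32851 promoters, 9.04% held GAANNTTC in any promoter, 4.51% TGATGNAA and 8.09% CACGTG. Among the 8 called genes with an entry the first was found in 1 (Hspb1), the second in 1 (Nupr1) and the third in 2 (AA467197 and Nupr1). A match describes the letters in the window and no binding was measured.

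No gene passed the test upward, and the 10 genes with the smallest p above 0 are given as values. Per1, a clock repressor that glucocorticoids and light induce, had levels of 6.73, 6.82 and 7.38 at 0.064 kBq and 8.16, 8.01 and 8.08 at 0.64 kBq with 1 probe, a difference of 1.11 ± 0.19 (SE, adjusted p = 0.103, limma). Its brighter probe gave 8.67, 8.60 and 9.53 against 9.64, 9.89 and 9.99, a difference of 0.91 (adjusted p = 0.34). With either probe all 0.64 kBq arrays lay above all 0.064 kBq arrays, though array 3 of 0.064 kBq came close to array 1 of 0.64 kBq with the brighter one.

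Angptl4, the secreted inhibitor of lipoprotein lipase that fasting raises, stood at 11.004, 10.20 and 10.36 against 11.90, 11.44 and 11.47, a difference of 1.08 ± 0.20 (adjusted p = 0.13, limma). Ly6f, a surface antigen of the Ly6 family, was at 7.13, 5.53 and 6.37 against 7.43, 9.55 and 9.03, the largest difference above 0 among these genes at 2.33 ± 0.51 (adjusted p = 0.217, limma). The groups did not overlap in Ly6f, but its lowest 0.64 kBq array was close to its highest 0.064 kBq array. Oas2, an interferon-induced synthetase of oligoadenylates, was at 6.22, 6.81 and 5.96 against 7.87, 7.22 and 7.45 (adjusted p = 0.201, limma).

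The sodium and myo-inositol cotransporter Slc5a3, which hypertonicity induces, differed by 0.79 (adjusted p = 0.141, limma). Polr3e, a subunit of RNA polymerase III, and Angptl7, a secreted angiopoietin-like protein, differed by 0.80 and 0.79 (both adjusted p = 0.103). Idnk, a gluconokinase, and D17H6S56E-5 differed by 0.64 and 0.83. Clec4a1, a lectin receptor of myeloid cells, was undetected on all 3 arrays of 0.064 kBq and detected on all 3 of 0.64 kBq, at least 1.53-fold higher (adjusted p = 0.287, limma). All 10 genes were called higher in the 18-array fit. They were picked by p on the same arrays that give that fit its difference, so these calls are no independent support.

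**Figure D3:**
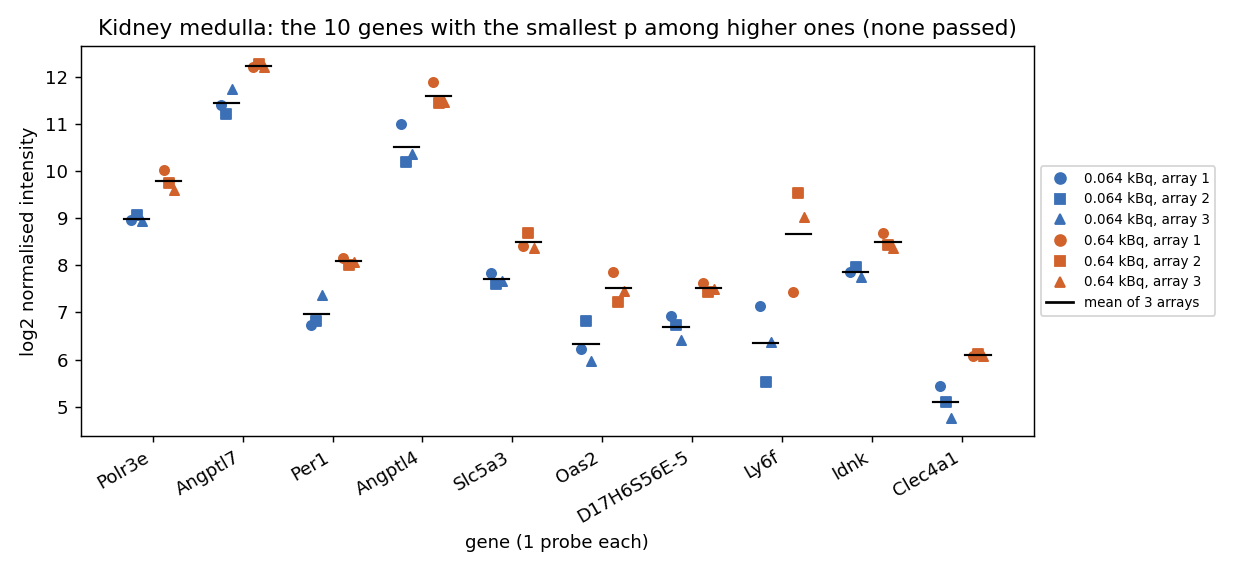
Log2 normalised intensity (vertical axis) of the 10 genes with the smallest p among those higher at 0.64 kBq, on each array of 0.064 kBq (blue) and 0.64 kBq (orange), with black bars for the means of 3 arrays. None passed the 6-array test, and the 3 arrays of Ly6f at 0.64 kBq range from 7.43 to 9.55.

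Gene lists were described by counts and medians, to be read against all 9241 genes: 5.51% of them had all 0.64 kBq arrays below all 0.064 kBq arrays and 7.43% the reverse. Of all 13257 probes, 1020 had an unadjusted p under 0.05 (limma). Markers of the urothelium of the renal pelvis were lower at 0.64 kBq. All 10 tested genes lay below 0, with a median of -1.11, and in 8 the groups did not overlap. None passed the 6-array test, with adjusted p from 0.103 for Psca to 0.945 for Krt7 (limma), 7 had an unadjusted p under 0.05, and 6 of 10 fell in the 18-array fit. Fewer cells of a type and less RNA per cell cannot be told apart in these bulk samples. Psca, a surface antigen of urothelium, was at 10.39, 10.32 and 10.02 against 7.82, 8.83 and 9.15 (-1.64 ± 0.28). The uroplakins that plate the urothelial surface followed, Upk1b at -1.38, Upk2 at -1.38 and Upk3a at -1.32. The summed level of the list was 3487 to 4171 at 0.064 kBq and 1571 to 2369.6 at 0.64 kBq. The list's median difference was -0.48 without background correction, -0.47 with the authors' processed intensities and -1.355 with no offset. The basal keratin Krt5 and Krt19 were detected on 2 of the 6 arrays at most.

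Smooth muscle markers were lower in 5 of 6 tested genes (median -0.71), 4 of them with groups that did not overlap, and 3 of 6 fell in the 18-array fit. Actg2, the smooth muscle gamma actin of hollow organs, went from 9.87, 8.21 and 7.21 to 6.16, 5.04 and 5.83, a difference of -2.75 ± 0.55 (adjusted p = 0.162, limma). Acta2, the alpha actin, was at 12.25, 11.96 and 11.85 against 11.46, 11.19 and 11.09 (-0.77), and the myosin Myh11 at -0.85. The summed level was 4957 to 7583 against 3409.8 to 4204, so the groups of the list as a whole did not overlap. Cnn1 and Synpo2 were undetected and Tagln was detected on 2 arrays.

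Fat cell markers varied widely between arrays of the same group. The median of the 7 tested genes was 10.12, 10.04 and 10.81 at 0.064 kBq and 10.28, 5.55 and 8.30 at 0.64 kBq, so that only arrays 2 and 3 of 0.64 kBq were low. Ucp1, the uncoupling protein of brown fat, was at 10.12, 11.19 and 12.06 against 10.10, 4.89 and 8.55 (-3.28 ± 1.03, adjusted p = 0.493, limma), and Adipoq, adiponectin, at 10.18, 10.04 and 10.81 against 11.01, 6.80 and 8.63. Ucp1 and Cidea, a lipid droplet protein, fell in the 18-array fit. The list's median difference was -1.53 with all arrays and -2.66 without array 1 of 0.64 kBq, and 6 of its 7 genes then fell in a fit of the other 17 medulla arrays, the 17-array fit. Of 15227 probes tested, that fit called 60 higher and 194 lower. Lep and Plin1 were detected on 2 arrays, and Retn and Fabp4 on 0. The part of urothelium, muscle and fat in the 10 calls was not tested.

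Lists of the nephron segments had medians closer to 0. The thin limb list had a median of -0.45 with 6 of 7 genes below 0, of which Cryab alone fell. Its array medians overlapped, at 7.74, 9.09 and 8.74 against 7.46, 8.31 and 8.43, and the median was -0.13 without array 1 of 0.64 kBq. Slc14a2, the urea transporter of the inner collecting duct and thin limb, was at -0.54 with its brightest probe (10.31, 11.08 and 11.13 against 9.85, 10.38 and 10.66, adjusted p = 0.647, limma) and at -0.88 with a dimmer probe. The other dim probe was undetected on all 3 arrays of 0.64 kBq and at least 2.55-fold lower there, and both dimmer probes fell in the 18-array fit. Slc14a1, the urea transporter of the descending vasa recta, was at 6.71, 6.66 and 6.42 against 5.67, 5.21 and 5.87 and fell in the 18-array fit.

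All 10 endothelial markers, Slc14a1 among them, lay below 0 (median -0.33), the fenestral diaphragm protein Plvap at -0.53 and the sialomucin Emcn at -0.52. In 5 of the 10 the groups did not overlap, and 3 of 10 fell in the 18-array fit. All 14 fibroblast and matrix genes lay below 0 too, at a median of -0.17 that was -0.01 under median scaling, and 1, the proteoglycan Lum, fell in the 18-array fit. In the 17-array fit 2 fell, Lum and the proteoglycan Dcn. The thick ascending limb list (median 0.03 over 11 genes), the proximal tubule list (0.01 over 11) and the oxidative phosphorylation list (0.01 over 30) stayed close to the median of all genes, with 0 calls in either fit (limma) and 1, 1 and 0 genes at an unadjusted p under 0.05 among the 6 arrays.

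Of the fixed tubule genes, Umod, the uromodulin of the thick limb, was at 14.85, 14.999 and 14.91 against 14.80, 14.91 and 14.89. Aqp2, the water channel of the collecting duct, was at 10.43, 10.37 and 9.85 against 9.92, 9.77 and 9.36 (-0.53 ± 0.18, adjusted p = 0.556, limma), with groups that overlapped. Within the principal cell list Scnn1g, a subunit of the epithelial sodium channel, was at 10.11, 10.21 and 9.64 against 10.47, 10.52 and 10.61 and rose in the 18-array fit, while the transcription factor Elf5 fell in it at -0.76, though not in the 17-array fit without array 1 of 0.64 kBq (adjusted p = 0.123, limma). Of the osmolyte and tonicity list 1 of 10 genes rose in the 18-array fit, Slc5a3, and 1 fell, the betaine transporter Slc6a12, at 8.73, 9.13 and 8.74 against 7.84, 7.92 and 8.54. In the 17-array fit 2 fell, Slc6a12 and the peroxidase Gpx8. All 10 intercalated cell genes lay above 0 (median 0.17), and 3 had groups that did not overlap, but 0 were called in either fit (limma) and 1 had an unadjusted p under 0.05.

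Genes of the integrated stress response, in which Atf4 drives amino acid synthesis and transport, were lower in 11 of 12 (median -0.39). Nupr1 alone fell in the 6-array fit, and Nupr1, Chac1 and Phgdh fell in the 18-array fit. Without array 1 of 0.64 kBq the median was -0.48, and 1 gene, Nupr1, fell in the 17-array fit (adjusted p = 0.0851 for Chac1 and 0.0537 for Phgdh, limma). Chac1, which degrades glutathione, was at 6.70, 8.81 and 8.78 against 6.21, 6.54 and 7.13, and Phgdh, the first enzyme of serine synthesis, at 6.07, 7.03 and 6.94 against 5.68, 5.47 and 5.80. Array 1 of 0.064 kBq lay apart from its group in both, as it did for Asns, asparagine synthetase (8.57 against 10.39 and 10.37), and the summed level of the list was 8631 to 11770 at 0.064 kBq and 6472 to 7117 at 0.64 kBq. The factor Atf4 itself was at -0.59 (adjusted p = 0.57, limma).

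Of 17 heat shock genes, Hspb1 fell in the 6-array fit, and Hspb1, Hspa1a and Hsph1 in the 18-array fit. The cochaperone Hsph1 was at 11.38, 11.35 and 11.55 against 10.98, 10.74 and 11.04 (-0.51 ± 0.11, adjusted p = 0.217, limma), and the inducible Hspa1a was at -0.55. The list had a median of -0.14, which was 0.08 under median scaling, so the list as a whole had no settled direction.

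The median of the p53 target genes lay close to 0 between the activities, which does not give their level against uninjected tissue. Cdkn1a, the kinase inhibitor p53 induces, was at 7.25, 7.73 and 8.002 against 7.42, 7.43 and 7.80 (-0.11 ± 0.21, adjusted p = 0.932, limma), and at 0.06 under median scaling. Mdm2, the p53 ubiquitin ligase, differed by 0.08 ± 0.11. Over 19 p53 target genes the median was -0.03, 0 passed the 6-array test (limma, 1 at an unadjusted p under 0.05), and 1, the death receptor Tnfrsf10b, fell in the 18-array fit at -0.89. The 14 genes of DNA damage signalling and repair had a median of -0.003 with 0 calls in either fit (limma) and 1 at an unadjusted p under 0.05. The injury markers Havcr1 (-0.08 ± 0.27) and Lcn2 (-0.38 ± 0.22) were given as fixed genes and neither passed, and Havcr1 was at 0.13 under median scaling. The metallothionein Mt1 (0.22), the immediate early factor Egr1 (-0.11), the cold-inducible Cirbp (-0.17) and the androgen-regulated proximal tubule gene Kap (0.01) did not pass either, and Egr1 and Cirbp were above 0 under median scaling, at 0.13 and 0.05. The probe of Fcrls was below the detection filter.

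Of 12 genes of the PPAR alpha and fatty acid oxidation list, 9 were above 0 (median 0.29), 5 had all 0.64 kBq arrays above all 0.064 kBq arrays, and 4 rose in the 18-array fit: Angptl4, the thioesterase Acot1 (12.40, 12.22 and 12.46 against 12.64, 12.82 and 13.14), the carnitine palmitoyltransferase Cpt2 (0.41) and the omega-hydroxylase Cyp4a14 (0.41). None passed the 6-array test (limma), and 5 had an unadjusted p under 0.05. Pdk4, which the same factor induces to restrain pyruvate oxidation, was at 10.25, 10.06 and 10.63 against 10.94, 10.16 and 10.19, with groups that overlapped (0.12 ± 0.21). Of 16 cholesterol and fatty acid synthesis genes 11 lay below 0 (median -0.20), 0 were called in either fit (limma), and 5 had an unadjusted p under 0.05. Without array 1 of 0.64 kBq 3 of them fell in the 17-array fit, Acaca and Fasn of fatty acid synthesis and Fdps of the sterol pathway.

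In the glucocorticoid and fasting list 12 of 14 genes were above 0 (median 0.18) and 2 rose in the 18-array fit, Per1 and Angptl4, the latter of which the PPAR alpha list holds too. In the clock list 10 of 14 were above 0 (median 0.17), and Per1 and Usp2, a clock-controlled deubiquitinase (0.43), rose in the 18-array fit, but Usp2 not in the 17-array fit (adjusted p = 0.118, limma). Arntl, the activator that drives Per1, was at 6.55, 7.37 and 6.86 against 5.76, 6.33 and 6.41 (-0.76 ± 0.26), and Dbp, an output factor of the clock, was at 12.70, 11.90 and 12.56 against 12.51, 12.55 and 12.62. Hours of injection or death were not given in the labels.

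Interferon response genes were above 0 in 17 of 20 (median 0.38), 4 with groups that did not overlap, and 1, Oas2, rose in the 18-array fit. Igtp, an interferon-induced GTPase, was at 9.67, 8.45 and 8.28 against 10.73, 8.75 and 8.86, so that array 1 was the highest of each group. The same array pattern stood out in the MHC class II list, whose summed level was 14078, 11113 and 8890.5 against 24258, 8183.5 and 12159. Its median difference was 0.29 with all arrays and -0.09 without array 1 of 0.64 kBq, and 0 of 8 genes were called in either fit (limma) or had an unadjusted p under 0.05 among the 6 arrays. The median of the interferon list was 0.26 without that array.

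**Figure D4:**
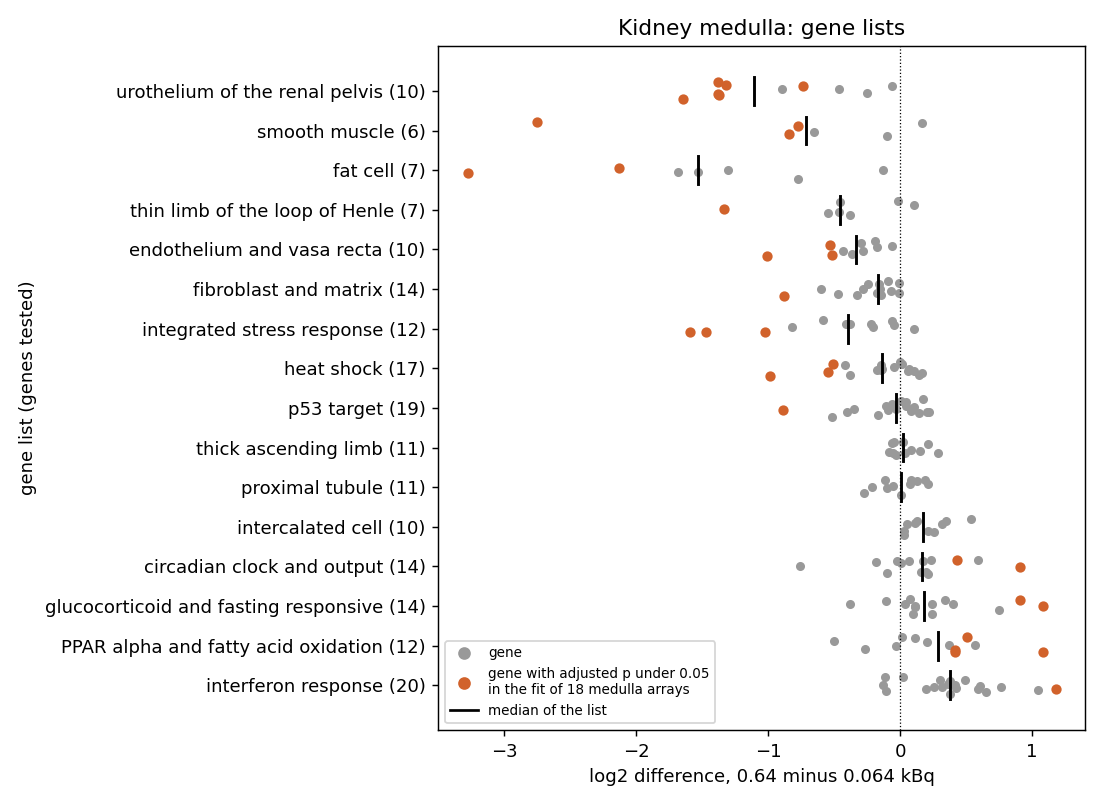
Log2 difference between 0.64 and 0.064 kBq (horizontal axis) for each tested gene of 16 gene lists (rows, with the number of genes), orange where the gene passed in the 18-array fit. Black bars are list medians, from -1.53 for fat cell genes and -1.11 for urothelium to 0.38 for interferon response genes.

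Whether the difference between activities was particular to the medulla was tested against kidney cortex, in a fit of 12 arrays with the interaction of tissue and activity. Of 14106 probes 0 were called (0%, limma), with 244 at an unadjusted p under 0.05, of which 132 were higher in medulla. The test rested on array 3 of cortex at 0.064 kBq. There the urothelium list had a median of 8.34 against 4.88 to 5.28 on the other 5 cortex arrays, and the fat list 11.98 against 4.86 to 7.89. The smooth muscle list was at 8.24 against 6.64 to 7.46, with Actg2 at 8.58 and undetected on the others. The median of its thin limb list, at 5.30, lay within the 4.96 to 5.43 of the other cortex arrays, but single medullary genes did not, Slc14a2 being at 7.37 and undetected on the others.

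On that array 9 of the 10 probes called lower in medulla were above all other 5 cortex arrays, Rasl11b being the exception. Meox2 was at 8.21 against 4.63 to 4.87, AA467197 at 8.32 against 4.67 to 5.19, Nupr1 at 11.47 against 8.56 to 9.49 and Cryab at 10.96 against 6.82 to 7.62. The unnamed probe was at 12.09 against 9.18 to 9.78. Rab15 was at 9.03, close to the highest of the others at 8.89. The part of the tissue carried by that array in these levels was not tested.

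Without that array, 1 probe was called for the interaction, the unnamed one, at -2.01 ± 0.25 (adjusted p = 0.0157, limma). The array was high in this same probe. Its cortex difference was -0.84 with the array and 0.08 without it, so the call rests on leaving the array out. AA467197 followed at -2.63 (adjusted p = 0.068, limma) and did not pass. Meox2 did not pass either (adjusted p = 0.105), and no size is given for it, since it was undetected on the remaining cortex arrays and at 0.64 kBq in medulla. Per1 differed between the activities by 1.11 in medulla and 0.99 in cortex with its dimmer probe. Its interaction with all arrays kept was 0.14 ± 0.31 (SE), and -0.11 ± 0.39 with the brighter probe. Angptl4 differed by 1.08 and 1.42, with an interaction of -0.30 ± 0.44.

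**Figure D5:**
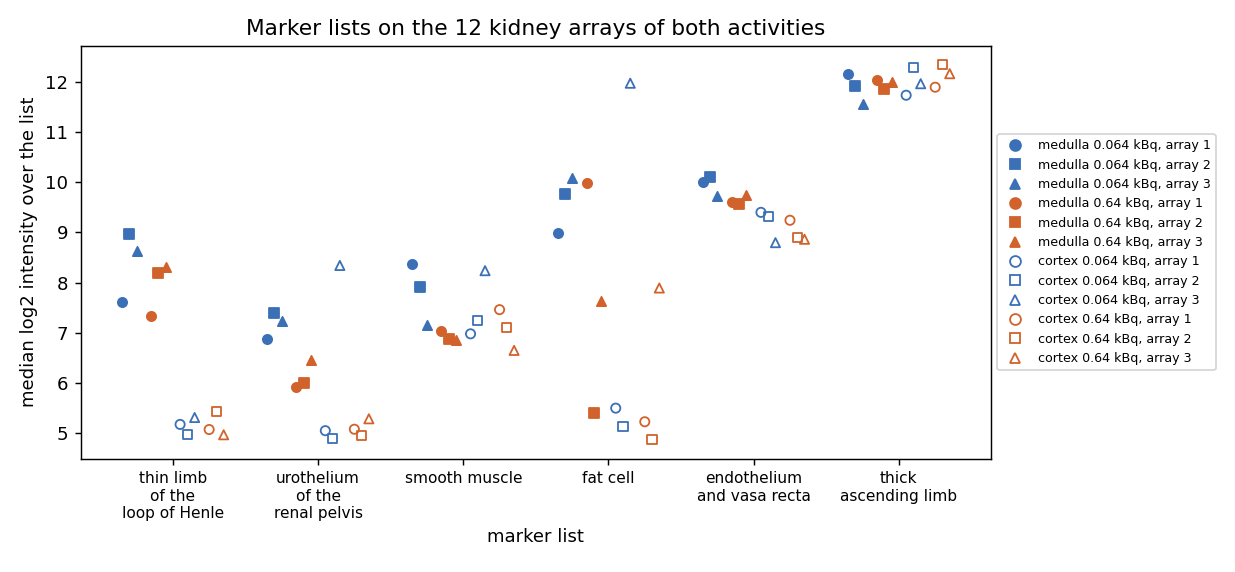
Median log2 intensity of 6 marker lists (vertical axis) on the 6 medulla arrays (filled) and 6 cortex arrays (open) of 0.064 kBq (blue) and 0.64 kBq (orange). Cortex array 3 of 0.064 kBq lies with or above the medulla arrays for urothelium and fat (8.34 and 11.98), and its thin limb median lies with the other cortex arrays.

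Values of the same genes elsewhere in the series are given without a test. The labels do not say whether tissues share animals, but array 1 of 0.64 kBq had Xist undetected and Eif2s3y detected in all 5 tissues. These values may thus not be independent of those in medulla. In the other 4 tissues Per1 was higher at 0.64 than at 0.064 kBq too. With its dimmer probe the differences were 1.06 in lung, 1.69 in liver, 0.56 in spleen and 0.99 in cortex, and the groups overlapped in lung only. With the brighter probe they were 1.02, 2.11, 0.43 and 1.03, and the groups overlapped in lung and spleen. Angptl4 was higher by 0.43, 0.56, 0.15 and 1.42 in these tissues, and its groups overlapped in liver and spleen. Oas2 was higher by 0.40, 0.89, 0.45 and 0.37, and its groups overlapped in cortex only. Polr3e, Angptl7, Slc5a3, D17H6S56E-5 and Clec4a1 each lay below 0 in some of these tissues. All 10 probes that fell in medulla lay below 0 in cortex too, from -1.40 to -0.31, with groups that overlapped in 9 of them. Without array 3 of cortex at 0.064 kBq, 6 of the 10 were below 0 in cortex and 4 above, from -0.58 to 0.44. In lung 6 were below 0, in liver 6 and in spleen 4. Nupr1 differed by -0.06 in lung, 0.75 in liver, 0.33 in spleen and -0.92 in cortex.

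Within the other array set, medulla at 1.8, 14 and 42 kBq was compared with its own 0 kBq arrays, which the 3 comparisons share. Angptl4 differed from 0 kBq by 1.14, 1.68 and 1.51 there and Pdk4 by 1.26, 1.31 and 1.41, and Meox2 was undetected on every array of the 4 groups. The p53 targets Cdkn1a and Mdm2 differed from 0 kBq by 0.98, 0.51 and 0.73 and by 0.30, 0.26 and 0.44. Nupr1 differed by 0.73, -0.21 and -0.09 and Hspb1 by 0.93, 0.02 and -0.01, so both were above 0 kBq at 1.8 kBq and near it at the higher activities. Other called probes were above 0 kBq at 1.8 kBq too: the unnamed probe (0.74), Cdkn2b (0.67), Rasl11b (0.64), Rab15 (0.56) and Tspan6 (0.44). AA467197 and Cryab were below it, both at -0.27.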

How the data were processed

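Expression in kidney medulla of Balb/c mice was measured on single-colour Illumina arrays with biotin-labelled total RNA. The authors deposited an unnormalised intensity per probe and array with a detection p-value, and a table of processed intensity whose column medians are 164.8 to 165.5 on the 30 arrays of 0.064 and 0.64 kBq and 117.5 to 117.9 on the other 60. How the authors normalised the latter is not given in the sources used here. Here limma 3.58.1 (R 4.3.3) corrected background by normal-exponential convolution from the deposited detection p-values with an offset of 16, took log2, and quantile normalised the 6 arrays. Probes with detection p under 0.05 on at least 3 arrays were fitted with 1 mean per group (lmFit, eBayes with an intensity trend), two-sided, with Benjamini-Hochberg adjustment, called at an adjusted p under 0.05. The number of arrays limits the precision.

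Of 25697 probes, 23978 had 1 symbol, 0 several and 1719 none, and the Entrez identifiers of 23962 updated the symbols. A list or fixed gene is shown by its brightest probe. A called gene, or one filled in by smallest p, is shown by the probe that was called or had the smallest p. For Tspan6 and Per1 that was the dimmer probe. Of 648 names in 45 lists, 572 had a probe. Members, lists and the naming rule were chosen with earlier results of these data known. The rule named 18 fixed genes, the 12 largest calls per direction whose groups did not overlap, filled to 10 by smallest p where fewer were called, and at most 4 calls from a list. List genes outside this rule were chosen after their values were seen. Same-numbered medulla and cortex arrays deviated together from their group means (r of 0.131 to 0.374 over probes), so the interaction was also fitted with them paired. The procedure was tested on simulated data. Alternatives were background, offset, normalisation, filter, variance model, replicate block, all medulla arrays, the authors' table, and each array left out.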

Additional observations from a re-analysis of the deposited data

How the results depend on the processing

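The count of 10 calls in medulla stayed within 1.5 times of itself under an offset of 50, no offset, cyclic loess, median scaling, the stricter detection filter, no filter, robust variances and the replicate block. It was 6 without background correction, 6 from the authors' table, 1 without the intensity trend and 178 in the fit of all 18 arrays, and ranged from 3 to 20 with 1 array left out. Calls above 0 numbered 4 under median scaling, 48 in the 18-array fit, 1 under the replicate block and 0 in the other settings that kept the 6 arrays. The replicate block gave 12 calls, 7 of them among the 10, but the labels do not say what a number means and same-numbered arrays of the groups correlated at 0.219, 0.0862 and 0.0594, so the numbers were not taken as pairs. The count of 0 for the interaction with cortex held in each alternative, the replicate block included, and ranged from 0 to 1 with 1 array left out. No called gene changed sign. Genes that did not pass and changed sign did so near 0: under median scaling Cdkn1a (0.059), Cirbp (0.046), Havcr1 (0.13) and Egr1 (0.13), and under cyclic loess Kap (-0.14). With 1 array left out, Cdkn1a ranged from -0.32 to 0.062, Dbp from -0.071 to 0.33, Pdk4 from -0.14 to 0.27, Cirbp from -0.39 to 0.11, Havcr1 from -0.46 to 0.17, Egr1 from -0.43 to 0.29 and Kap from -0.025 to 0.076. Over all named genes and settings, 515 values kept direction and side of the threshold, 53 lost the threshold and 22 gained it. The cause of these changes was not tested.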

Other observations

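The 18-array fit called genes outside the lists, and those named here were chosen after their values were seen. Cldn11, a claudin of tight junctions, was at 9.79, 9.37 and 10.49 at 0.064 kBq and at 6.92, 7.58 and 8.35 at 0.64 kBq (-2.27), close to the threshold of the 6-array fit (adjusted p = 0.0684, limma). Other genes that fell in that fit were Lamb3, a laminin chain of basement membranes, at 7.48, 6.88 and 7.25 against 5.24, 6.10 and 6.202, the ligand Wnt7b at 8.24, 8.37 and 8.54 against 7.21, 7.42 and 7.79, and the transcription factor Klf5 at 8.10, 8.07 and 7.85 against 6.98, 7.12 and 7.25. In each of the 4 the groups did not overlap, which held for most probes that fell in the 18-array fit. They were picked from calls on these same arrays, so this is no added support. Serpina1b, a serum protease inhibitor of the Serpina1 cluster, was lower with both of its probes (-1.40 and -1.35), and Serpina1d by a similar amount (-1.26), though these near-identical genes can share probe signal.

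Among genes higher in that fit, Acot3, a peroxisomal thioesterase, was at 10.94, 10.39 and 10.67 against 11.15, 11.22 and 11.74, and Noct, a clock-controlled nuclease, at 9.11, 8.89 and 8.95 against 10.01, 9.34 and 9.43. Hdc, histidine decarboxylase, was at 11.33, 11.76 and 10.74 against 12.04, 12.14 and 11.80. None of the 3 passed the 6-array test. Without array 1 of 0.64 kBq, a fit of the other 17 arrays was added after the data were seen. Of 15227 probes tested it called 60 higher and 194 lower, of which 31 and 100 were shared with the 18-array fit.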
